A study of Mus musculus with 7 samples.

Results

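The genes described here are 9 members of the scavenger and lipoprotein receptor families: Cd68, Scarb2, Scarb1, Cd36, Msr1, Colec12, Marco, Lrp1 and Olr1. Most take up modified lipoproteins, lipids, debris or protein ligands, while Cd68 encodes a lysosomal glycoprotein and Scarb2 a lysosomal membrane protein. The genes were chosen by gene symbol as a functional family, and all 9 were found among the 40743 genes of the expression table. Their RNA was read in 7 libraries of retinal microglia (rMG) sorted from Irf8-/- Cx3cr1GFP/+ mice (Irf8 KO) on a C57BL/6J background, 3 from mice without laser and 4 from mice with laser. The laser makes burns through which choroidal vessels grow into the outer retina (choroidal neovascularisation), and the lasered retinae were taken 7 days later. Each library held on average 10000 cells pooled from 3 to 4 mice, gated as CD45low CD11b+ Cx3cr1-GFP+ Ly6C- Ly6G-, and for lasered mice only the central 70% of the retina was used. The use of the central retina cannot be told apart from the laser. By their labels both groups are Irf8 KO, and the paper describes such mice as Irf8-/- with 1 GFP copy of Cx3cr1. No library with intact Irf8 was analysed here.

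Scavenger receptors bind polyanionic ligands such as oxidised low density lipoprotein, bacterial wall components and apoptotic debris, and carry them to the lysosome. The class A receptors Msr1, Marco and Colec12 have collagen-like stems, the class B receptors Cd36, Scarb1 and Scarb2 are anchored in the membrane at both ends, Olr1 is a C-type lectin, and Lrp1 is a very large member of the low density lipoprotein (LDL) receptor family. In the retina, microglia and macrophages use such receptors to clear photoreceptor debris and lipid.

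Values are read counts scaled to the library total (CPM) in each library. Total reads were 20427558 to 36022954 in the 3 unlasered and 37133297 to 45919042 in the 4 lasered libraries, so a count of 3 reads corresponds to 0.0653 to 0.147 CPM. This floor covers counting error only. Irf8 itself was read at 489 to 530 CPM in the unlasered and 463 to 582 CPM in the lasered libraries, listed jointly with Gm20388, whose span covers it. A count per gene does not show which exons were covered, so this value does not check the deletion in either direction. The libraries are therefore called by their labels, and every direction below rests on them. The microglial marker list summed to 22224 to 26657 CPM and 20112 to 27033 CPM in the 2 groups, although Sall1 was at or under 1.36 CPM in all libraries.

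Of the 9 receptors, Colec12 alone passed the test between the groups and was 1.90-fold higher after laser. Its call held in 11 of 17 alternative settings. The other 6 receptors that could be tested, Cd68, Scarb2, Scarb1, Cd36, Msr1 and Lrp1, did not pass the test, which does not show that they were unchanged. Marco and Olr1 did not reach 1 CPM in 3 libraries and so did not enter the main fit across genes. They entered the alternative fits with no filter and with a mean of at least 10 reads, and passed in neither. The test was limma on log2(CPM + 1) over 17496 genes that reached 1 CPM in 3 or more libraries, with Benjamini-Hochberg adjustment. Among all genes tested, 6.93% passed in either direction with 3.86% higher and 3.07% lower after laser, so that 1 of 7 tested receptors is near this background and is not a result about the family. The median log2 fold change (log2FC) was 0.11 over the 7 receptors and -0.01 over all genes tested.

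**Figure D1:**
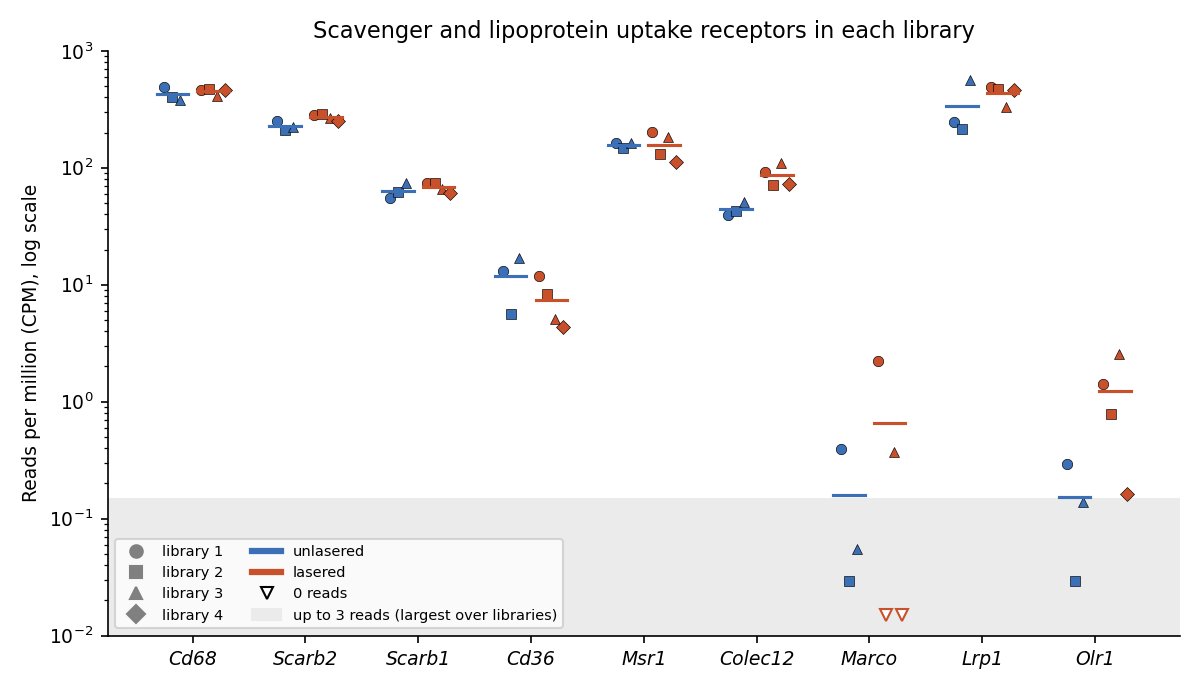
CPM on a log scale for the 9 receptors, with 1 point per library (blue unlasered, red lasered, marker shape by library number) and a bar at the group mean. Colec12 is the only receptor whose groups do not overlap; Lrp1 has 1 high unlasered library, and Marco and Olr1 reach into the grey band of up to 3 reads.

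The receptors differed widely in level. Levels between genes are compared here as CPM per kilobase of all annotated exons of the gene, which corrects for transcript length only roughly. Cd68, the lysosomal glycoprotein used as a macrophage marker, was highest with 336 ± 44.0 per kb (SD, n = 3) without and 360 ± 22.7 per kb (SD, n = 4) with laser. Scarb2 followed with 36.3 ± 3.39 and 43.2 ± 2.37 per kb, then Msr1 with 24.9 ± 1.34 and 24.7 ± 6.70 per kb and Lrp1 with 19.2 ± 10.7 and 24.7 ± 4.20 per kb. Colec12 (5.10 ± 0.707 and 9.89 ± 2.09 per kb) and Scarb1 (7.49 ± 1.13 and 8.06 ± 0.795 per kb) were lower still. Cd36 had 3.29 ± 1.59 and 2.07 ± 0.957 per kb. Marco and Olr1 were last with means under 0.35 per kb in both groups.

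The order held in all 7 libraries for Cd68 over Scarb2, Scarb2 over Msr1, Lrp1 over Colec12, Scarb1 over Cd36 and Cd36 over Marco. Msr1 lay above Lrp1 in 4 of 7 libraries and Marco above Olr1 in 3 of 7, so these neighbours were not separated. Colec12 lay under Scarb1 in each of the 3 unlasered libraries and above it in 3 of the 4 lasered ones. Divided by the longest transcript in place of all exons, 7 of 9 receptors kept their place, and Scarb1, with 3.09 kb in its longest transcript against 8.50 kb of exons, moved above Colec12. By that measure Scarb1 had means of 20.6 without and 22.1 per kb with laser, and Colec12 5.55 and 10.8 per kb. The change of order between Colec12 and Scarb1 after laser thus depends on the length used.

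Colec12 (ENSMUSG00000036103, chromosome 18 of GRCm38, protein-coding) encodes the collectin placenta protein, a class A receptor with a collagen-like stem and a carbohydrate-binding domain. Its level was 39.4, 42.7 and 51.4 CPM in unlasered libraries 1, 2 and 3. In lasered libraries 1 to 4 it was 91.6, 70.7, 110 and 73.1 CPM. Every lasered library lay above every unlasered one, which was so for 10.4% of all genes tested. The means were 44.5 ± 6.17 CPM (SD, n = 3) and 86.3 ± 18.2 CPM (SD, n = 4), and log2FC was 0.93 (standard error 0.18, 95% interval 0.51 to 1.34, adjusted p = 0.0234 from limma). In a bulk sample, more cells that express a gene and more RNA per cell cannot be told apart.

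The log2FC of Colec12 stayed between 0.80 and 1.03 with each library left out, but its call was lost without unlasered library 1 (adjusted p = 0.0636 from limma), unlasered library 2 (0.0579), lasered library 1 (0.0706) or lasered library 3 (0.0558), and with no filter on low values (0.0620). Part of its reads was listed jointly with Gm7497, a gene on the same strand within its span, and the deposited value does not separate them.

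Colec12 is also known from vascular and stromal cells, so markers of other cell types were read beside it. The 9 genes of the pericyte and fibroblast list summed to 2.39 to 7.36 CPM without and 21.6 to 39.7 CPM with laser. Nearly all of this came from Cspg4 (0.613 to 4.14 CPM and 20.0 to 37.1 CPM, log2FC 3.13, adjusted p = 0.00605 from limma). The collagen and matrix genes of the same list were near 0. Col1a1 had 0.147 to 0.861 CPM without and at most 0.0445 CPM with laser, and Dcn 0.278 to 0.783 and 0.0653 to 0.223 CPM. Lum had at most 3 reads in any library. The pericyte gene Pdgfrb was tested and did not pass (log2FC -0.07, adjusted p = 0.906 from limma), and Rgs5 reached 1.56 CPM with laser. The border macrophage list summed to 2172 to 2706 CPM without and 1294 to 1565 CPM with laser, with 2 of its 5 tested genes lower (Pf4 and Ms4a7). Mrc1 (log2FC -0.59), Cd163 (-0.02) and Folr2 (0.34) did not pass. The paper reports the product of Mrc1 on Irf8 KO rMG themselves, so this sum is not specific to border macrophages. Rod photoreceptor genes summed to 2251 to 20191 CPM without and 321 to 1020 CPM with laser, with unlasered library 2 highest and 14 of 15 genes lower. For each of these 3 summed lists the groups did not overlap, and an exact permutation test (two-sided) gave p = 0.0571, the smallest this design allows, or 0.171 after adjustment over 9 lists. Their part in the Colec12 result was not tested.

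The other lists overlapped between the groups. The sums were 87.0 to 354 CPM and 259 to 910 CPM for 6 monocyte genes, 24.8 to 48.1 CPM and 33.7 to 141 CPM for 6 dendritic cell genes, and 17.1 to 60.5 CPM and 14.2 to 31.4 CPM for 9 endothelial genes, each without and with laser. Retinal pigment epithelium genes summed to 53.4 to 71.8 CPM and 48.2 to 56.4 CPM, and the 9 Mueller glia genes, most of it Apoe, to 52406 to 77385 CPM and 29570 to 72724 CPM. The exact permutation p of these lists and of the microglial list lay between 0.114 and 0.571.

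The genes with the most similar pattern to Colec12 over the 7 libraries were Psat1 (Pearson's r = 0.988 on log2(CPM + 1)), Treml2 (0.987) and Tor1aip2 (0.982), out of 10282 genes with a mean of at least 10 CPM. These are the highest of very many coefficients over 7 points and include the difference between the groups. Treml2, a receptor related to Trem2, had 2.94 to 5.64 CPM without and 16.0 to 33.2 CPM with laser (log2FC 2.14, adjusted p = 0.00742 from limma). Treml2 was picked for its likeness to Colec12, which itself differs between the groups. It reached a mean of 10 CPM only through the lasered libraries, so its difference is no separate support. Psat1 (log2FC 0.42) and Tor1aip2 (0.38) did not pass the test, with adjusted p = 0.102 and 0.0810 from limma.

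Lrp1 (ENSMUSG00000040249, chromosome 10, 127538161 to 127621148), an endocytic receptor for apolipoprotein E and protease complexes, varied widely between libraries without laser. It was measured at 248, 214 and 558 CPM in unlasered libraries 1 to 3. The lasered libraries had 493, 466, 328 and 462 CPM. The groups overlapped through the high unlasered library 3 alone, and log2FC was 0.48 (standard error 0.30, 95% interval -0.21 to 1.17, adjusted p = 0.396 from limma). Without unlasered library 3 the log2FC of Lrp1 was 0.90 (standard error 0.17) and passed with an adjusted p of 0.0299 from limma. Without unlasered library 2 it was 0.22 (adjusted p = 0.776 from limma).

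The unlasered library 3 read long genes higher than the other unlasered libraries did. Its log2 difference from their mean had a median of -0.32 over 2026 genes with under 2 kb of exons and of 0.52 over 1023 genes with 10 kb and over. Across 10282 genes this difference had a Spearman rho of 0.54 with exon length. Genes share the library and are not independent, so no p is given. Lrp1 has 17.7 kb of exons and lay 1.27 above the other unlasered libraries on the log2 scale, beyond the median of long genes. With the length trend removed from each library, which was tried only once this spread had been seen, the log2FC of Lrp1 was 0.51 and it did not pass (adjusted p = 0.194 from limma).

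**Figure D2:**
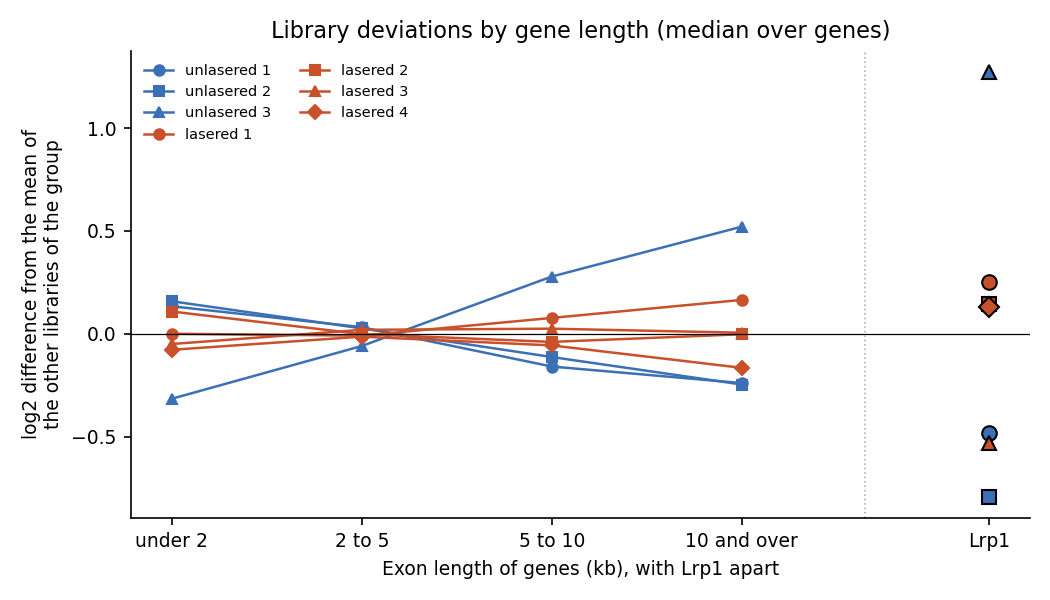
Median log2 difference of each library from the mean of the other libraries of its group, for genes binned by exon length in kb, with the value of Lrp1 set apart on the right. Unlasered library 3 rises from -0.32 in the shortest to 0.52 in the longest genes, while the lasered libraries stay between -0.16 and 0.17.

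Stab1 and Sorl1, each the highest gene in CPM of its related list, were also highest in unlasered library 3. Stab1, a scavenger receptor of the stabilin family, had 359, 375 and 891 CPM in unlasered libraries 1 to 3 and 444 to 649 CPM with laser. Sorl1, a sorting receptor of the LDL receptor family, had 121, 101 and 346 CPM without laser and 186 to 311 CPM with it. Neither passed the test (adjusted p = 0.879 and 0.411 from limma). This was not so for every large receptor: Lrp1b, looked at after its values were seen, had 49.0, 30.7 and 25.9 CPM in unlasered libraries 1 to 3, lowest in library 3.

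The class B receptors kept to a narrow range, apart from Cd36. Scarb2 (ENSMUSG00000029426, chromosome 5, 92441314 to 92506833) encodes a lysosomal membrane protein that sorts an enzyme to the lysosome. It was measured at 252.1, 211 and 222 CPM without laser and at 280, 285, 269 and 251.6 CPM with it. Only lasered library 4 and unlasered library 1 overlapped, by less than 1 CPM. The log2FC was 0.25 (standard error 0.11, 95% interval -0.01 to 0.51, adjusted p = 0.231 from limma), which leaves room for a rise of up to 1.42-fold.

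Scarb1 (ENSMUSG00000037936, chromosome 5, 125277087 to 125341094), the receptor for high density lipoprotein, was measured at 54.7, 62.5 and 73.8 CPM without laser. With laser it was 73.4, 74.7, 65.7 and 60.3 CPM. The groups overlapped, and log2FC was 0.11 (95% interval -0.23 to 0.44, adjusted p = 0.721 from limma).

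Cd36 (ENSMUSG00000002944, chromosome 5, 17781690 to 17888801) binds oxidised LDL, long-chain fatty acids and thrombospondin. Its values were 13.1, 5.58 and 16.8 CPM without laser, and 11.8, 8.40, 5.07 and 4.36 CPM with laser. Both groups spanned about the same fold, 3.01 and 2.72 between their highest and lowest library, and overlapped. The log2FC of Cd36 was -0.58 (standard error 0.40, 95% interval -1.48 to 0.32, adjusted p = 0.441 from limma), and the interval reaches from a fall to 0.359 of the unlasered level to a 1.25-fold rise. Cd36 is also known from endothelium and pigment epithelium. The 9 endothelial genes summed to 26.2, 17.1 and 60.5 CPM without and 31.4, 26.8, 25.2 and 14.2 CPM with laser, highest in unlasered library 3 and lowest in lasered library 4, as Cd36 was. This comparison of libraries was not planned. Of this list Pecam1 reached 36.8 CPM and Kdr 11.7 CPM, while Cldn5 had at most 1 read in any library. The pigment epithelium list summed to 53.4, 71.8 and 54.4 CPM without and 50.8, 48.2, 56.4 and 55.0 CPM with laser. This sum was highest in unlasered library 2, where Cd36 was lowest among the unlasered libraries. Of this list Rlbp1 reached 32.1 CPM and Rpe65 at most 7 reads. The part of these cells in the Cd36 values was not tested.

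Pparg, a nuclear receptor known to induce Cd36, was high and low in much the same libraries. It was measured at 9.69, 2.51 and 13.3 CPM in unlasered libraries 1 to 3 and at 5.82, 7.91, 0.871 and 1.02 CPM in lasered libraries 1 to 4. Fyn, a kinase that acts downstream of CD36, was at 22.6, 7.39 and 19.7 CPM and at 18.9, 23.6, 3.59 and 3.26 CPM. Both genes were low in unlasered library 2 and in lasered libraries 3 and 4, as Cd36 was. Of 5 tested monocyte genes 1 rose (Fn1, log2FC 2.41, adjusted p = 0.0485 from limma), and the part of such cells in the Cd36 values was not tested. Pparg and Fyn were picked for this comparison after their values were seen, and neither passed the test between the groups.

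Msr1 (ENSMUSG00000025044, chromosome 8, 39581685 to 39642673), the class A receptor for modified LDL, had nearly the same mean in both groups, 158 ± 8.49 CPM (SD, n = 3) and 157 ± 42.5 CPM (SD, n = 4). Without laser it was even, at 163, 148 and 163 CPM. With laser it spread over 202, 130, 183 and 112 CPM, on both sides of the unlasered values. The log2FC was -0.05 (95% interval -0.51 to 0.41, adjusted p = 0.911 from limma), and its sign changed with the scaling. The spread of Msr1 on the log2 scale was larger than that of 91.4% of genes with at least 10 CPM among lasered libraries and larger than that of 6.76% among unlasered ones. This difference in spread was not tested.

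Cd68 (ENSMUSG00000018774, chromosome 11, 69664213 to 69666153) was measured at 486, 400 and 382 CPM without laser. With laser it was 466, 475, 411 and 458 CPM. All lasered values lay within the unlasered range, and log2FC was 0.10 (95% interval -0.17 to 0.38, adjusted p = 0.678 from limma). A change of more than 1.30-fold lies outside this interval.

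**Figure D3:**
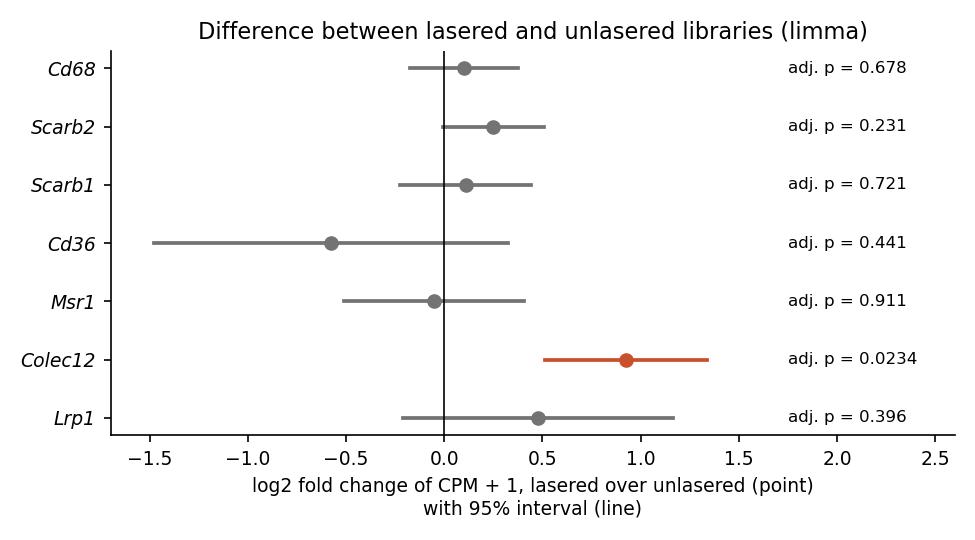
Log2FC of lasered over unlasered libraries for the 7 tested receptors (points) with 95% intervals from limma (lines) and adjusted p-values. The interval of Colec12 runs from 0.51 to 1.34 and those of the other 6 include 0, the widest being that of Cd36.

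Marco (ENSMUSG00000026390, chromosome 1, 120474538 to 120505024) and Olr1 (ENSMUSG00000030162, chromosome 6, 129485244 to 129507165) encode a macrophage receptor for bacteria and particles and the lectin-like receptor for oxidised LDL. Marco had 8, 1 and 2 reads in the unlasered libraries and 99, 0, 17 and 0 reads in the lasered ones. Its highest level, 2.24 CPM in lasered library 1, stood beside 2 lasered libraries with no read at all. Olr1 had 6, 1 and 5 reads without laser and 63, 35, 117 and 6 reads with it. Of the lasered libraries, 3 lay above all unlasered ones in Olr1 and library 4, with 0.162 CPM, did not. The mean of Olr1 was 0.154 ± 0.133 CPM (SD, n = 3) and 1.23 ± 1.02 CPM (SD, n = 4). The difference of Olr1, 1.08 CPM, was close to the SD of the lasered libraries, fell to 0.636 CPM without lasered library 3, and was not resolved by a two-sided exact permutation test (p = 0.114). For Marco the exact permutation p was 0.914.

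The promoters of the receptor with the highest level per kilobase and of the 2 with the lowest are shown, as the 250 bases before the RefSeq start (GRCm38.p6, 5′ to 3′ on the minus strand, which carries all 3 genes). They span chr11:69666171-69666420 for Cd68, chr1:120505025-120505274 for Marco and chr6:129507166-129507415 for Olr1. Capitals mark GAGGAA, the core bound by PU.1 in macrophages, and TGACTCA, the AP-1 motif, on either strand, where TTCCTC and TGAGTCA are the reverse.
Cd68: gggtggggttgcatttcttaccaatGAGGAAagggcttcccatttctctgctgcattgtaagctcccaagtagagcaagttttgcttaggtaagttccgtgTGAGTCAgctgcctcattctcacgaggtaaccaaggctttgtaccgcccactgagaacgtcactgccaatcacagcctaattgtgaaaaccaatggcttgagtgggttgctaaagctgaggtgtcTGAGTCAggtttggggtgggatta
Marco: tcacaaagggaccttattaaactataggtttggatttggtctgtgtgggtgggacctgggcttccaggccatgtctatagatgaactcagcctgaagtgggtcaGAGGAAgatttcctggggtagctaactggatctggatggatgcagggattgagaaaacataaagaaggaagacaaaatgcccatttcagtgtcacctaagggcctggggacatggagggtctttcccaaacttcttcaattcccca
Olr1: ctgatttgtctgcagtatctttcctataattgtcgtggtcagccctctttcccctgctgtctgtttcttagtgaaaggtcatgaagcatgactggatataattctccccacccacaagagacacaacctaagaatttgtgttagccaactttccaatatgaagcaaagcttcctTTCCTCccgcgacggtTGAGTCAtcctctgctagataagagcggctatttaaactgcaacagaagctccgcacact

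Cd68 held 1 match to GAGGAA and 2 to TGACTCA, Olr1 held 1 of each, and Marco held 1 match to the former. The core GAGGAA occurred in 23.3% and the motif TGACTCA in 4.46% of 32851 mouse promoter windows of this length, several per gene for some genes. Such matches describe letters, not bound sites, and here they were shared by a gene at 423 CPM and by genes with group means of at most 1.23 CPM. The promoters of Scarb2 and Lrp1 held neither motif but 19 and 13 CpG dinucleotides, against a median of 6 over all windows and 4 in Cd68. The window of Cd36 held neither motif and 3 CpG. Promoter windows were matched for 6 of the 9 receptors.

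Genes that work with these receptors were read from 7 lists of ligands, partners and related receptors, 71 genes in all. Of 63 tested, 3 rose and 3 fell after laser, 9.52% against 6.93% of all genes tested. The falls include Lrp2, whose call is no support for a fall, as described below. This share is near the background and is not a result about these genes. Their median log2FC was 0.08.

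Among 12 LDL receptor family and sortilin genes, all tested, 2 fell and none rose (median log2FC -0.17). Of these, Lrp2 (megalin) had 2.07 to 2.40 CPM without and 0.476 to 0.646 CPM with laser (log2FC -1.04, adjusted p = 0.0140 from limma). It entered the test only through the 3 unlasered libraries, since all lasered values were under 1 CPM, so that its groups had to differ and the call is no support for a fall. Its log2FC was -1.82 with a pseudocount of 0.1 and -1.97 with edgeR. The highest in CPM was Sorl1.

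Of the adaptors, chaperones and regulators of lipoprotein receptors, 1 of 9 tested fell (median -0.25). This was Gulp1, an engulfment adaptor that binds Lrp1 and the stabilins, with 9.79, 10.4 and 8.94 CPM without and 2.51, 2.90, 3.70 and 3.42 CPM with laser (log2FC -1.38, standard error 0.18, adjusted p = 0.00749 from limma). The groups did not overlap, as for 10.7% of all genes tested in this direction, and the call held without each library. Part of the Gulp1 reads was listed jointly with genes inside its span. The highest in CPM, the adaptor Dab2, had 1218 ± 284 CPM (SD, n = 3) and 971 ± 100.3 CPM (SD, n = 4) and did not pass.

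Of 8 tested ligands and lipases, 1 rose (median 0.02). Lpl, the lipoprotein lipase, which frees fatty acids from triglyceride-rich lipoproteins, was measured at 31.4, 1.69 and 10.3 CPM without and at 80.1, 76.7, 86.2 and 65.4 CPM with laser (log2FC 2.96, standard error 0.66, adjusted p = 0.0334 from limma). The lasered libraries were even and the unlasered ones were not, and log2FC was 2.02 without unlasered library 2 and 3.81 without unlasered library 1. The Lpl call was lost with edgeR (adjusted p = 0.0957) and without unlasered library 3 or any lasered library (0.0583 to 0.0852 from limma). Apoe, a ligand of Lrp1 and the highest of the list, had 67572 ± 13869.6 CPM (SD, n = 3) and 46984 ± 18374 CPM (SD, n = 4) and did not pass (adjusted p = 0.250 from limma).

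Of the 10 genes that handle lipid after uptake, 2 rose and none fell (median 0.27). Abcg1, a cholesterol exporter, rose from a range of 97.6 to 117 CPM to one of 140 to 222 CPM (log2FC 0.66, adjusted p = 0.0470 from limma), and Nceh1, a cholesteryl ester hydrolase, from 104 to 150 CPM to a range of 162 to 211 CPM (log2FC 0.64, adjusted p = 0.0467 from limma). Abcg1 lost its call without any library except lasered 4, and Nceh1 without any except unlasered 3. Part of the reads of Abcg1 and of Nceh1 was listed jointly with another gene. Abca1, the highest of this list, had 302, 306 and 721 CPM without laser, again with a high unlasered library 3, and 487 to 736 CPM with it.

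None passed among 7 tested scavenger receptors outside the family (median -0.02, Stab1 highest), 10 CD36 partners and regulators (median 0.12, the kinase Lyn highest) and 8 lysosomal membrane genes (median 0.10, Lamp2 highest). Against a background of 6.93%, 0 calls in lists this short is no result about them.

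**Figure D4:**
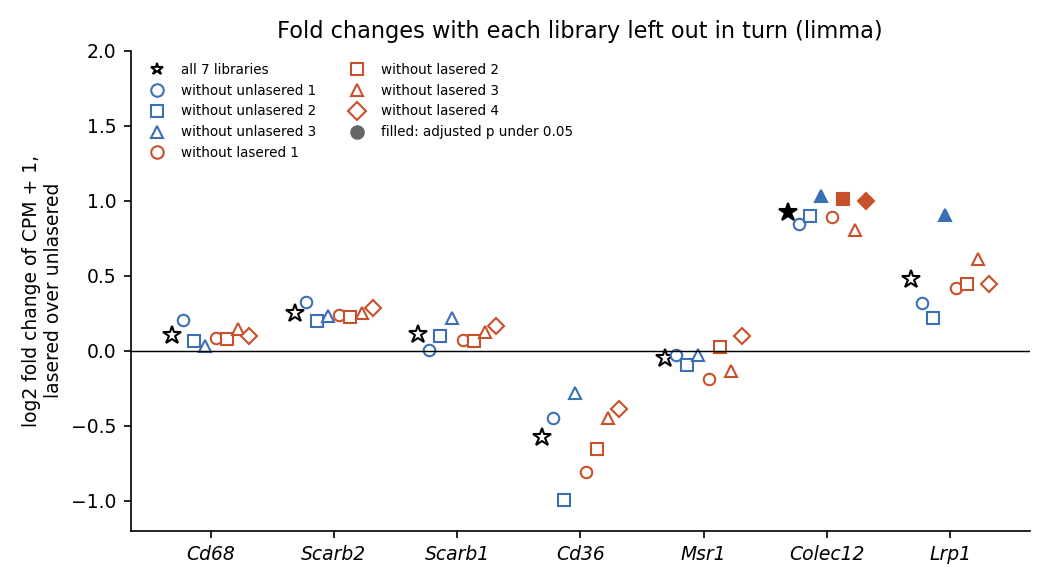
Log2 fold change of the 7 tested receptors with all 7 libraries (star) and with each library left out (blue, an unlasered library left out; red, a lasered one), filled where the adjusted p from limma was under 0.05. Colec12 stays between 0.80 and 1.03, Lrp1 reaches 0.90 only without unlasered library 3, and Msr1 lies on both sides of 0.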

How the data were processed

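RNA-seq of 7 libraries of sorted retinal microglia was analysed (3 unlasered, 4 lasered, by sample title). The authors removed adapters with cutadapt and duplicates with FastUniq, mapped reads with bowtie2 (GRCm38 in the submitters' processing notes) and counted them with HTSeq on gene annotation version 90. The deposited columns are headed TPM but hold CPM: within a library 100% of values were whole multiples of 1 step (tolerance 0.05 reads), whatever the gene length. The recovered reads gave the depth and the count tests.

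The effect of laser was tested in limma 3.58.1 (R 4.3.3; trend, robust) on log2(CPM + 1), which understates changes of low genes. Genes that reached 1 CPM in 3 or more libraries entered. Tests were two-sided with Benjamini-Hochberg adjustment, called at an adjusted p under 0.05. P-values measure the spread between these pooled samples. Summed marker lists, Marco and Olr1 were compared with exact permutation tests over 35 splits. Alternatives were a pseudocount of 0.1, no filter, a mean of at least 10 reads, median-of-ratios and TMM scaling, edgeR 4.0.16, DESeq2 1.42.0, no robust moderation, each library left out, a fit blocked on the replicate number, and, added after seeing the data, removal of each library's length trend.

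Coordinates and lengths come from GENCODE M21 (GRCm38), to which 99.7% of genes were matched. The library kit does not mark strand, so reads of genes that overlap on opposite strands cannot be told apart. The receptors and lists were chosen with earlier results of these data known. Named genes are the 9 receptors, of each related list those called and the highest in CPM, and the 3 genes most alike Colec12 in pattern; others are marked as picked after their values were seen, and a called gene of these lists is not reported here. The limma, edgeR and length-trend steps were tested on simulated data.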

Additional observations from a re-analysis of the deposited data

Results flagged for a closer look

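Of 31 levels tested over the 4 lasered libraries (receptors, named related genes and marker sums), 1 had a library far from the other 3: Marco in lasered library 1, with 2.24 CPM, where the others had 0, 0.370 and 0 CPM. Its gap was 0.835 of the whole range, above the 95% limit for 4 values. Chance gives about 1 in 20 such cases, so 1 flag among 31 levels is no more than chance would give.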

How the results depend on the processing

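Changing 1 choice at a time, 17 alternatives were run for each of the 7 tested receptors, and for Marco and Olr1 each library was left out. Colec12 stayed higher after laser in all 17 (log2FC 0.80 to 1.05) and passed in 11 (adjusted p from 7.13e-05 with DESeq2 to 0.0917 with the replicate block). Cd68, Scarb2, Scarb1 and Cd36 kept their direction and passed in none (lowest adjusted p 0.282, 0.0652, 0.330 and 0.168). Lrp1 kept its direction and passed in 1, without unlasered library 3. Msr1 reversed with median-of-ratios (log2FC 0.031) and TMM scaling (0.072), the replicate block (0.096) and without lasered library 2 (0.023) or 4 (0.096), with -0.19 to 0.096 over the libraries left out. The Marco difference of 0.495 CPM became -0.0354 CPM without lasered library 1 and reached 0.712 CPM without lasered library 2. The small sum differences of the microglial list (log2 ratio -0.08) and the endothelial list (-0.50) became 0.0060 with median-of-ratios scaling and 0.17 without unlasered library 3, against -0.83 without unlasered library 2.

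Over all genes, 676 were higher and 537 lower after laser, with 3963 at an unadjusted p under 0.05. These counts became 212 and 173 without a filter on low values, 1177 and 1141 with DESeq2, and 662 and 604 with edgeR. TMM scaling gave 1040 higher and 466 lower, which moved the share of higher calls from 55.7% to 69.1% and the median of all genes by 0.11. Leaving out 1 library gave 150 to 815 higher and 114 to 433 lower, with 0 to 2 receptors called and 2 to 7 related genes called, against 1 and 6 with all libraries. Related genes called numbered 2 without the filter and 3 with a mean of at least 10 reads, and no receptor passed without the filter.

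Under the replicate block, in which lasered library 4 has no counterpart, 2 genes were higher and 1 lower, and 0 receptors and 0 related genes passed. For Colec12 the block gave log2FC 1.00 (adjusted p = 0.0917 from limma). Same-numbered libraries deviated from their group means with correlations of -0.18, -0.13 and -0.02 across genes, which showed no pairing by number. So few pairs cannot exclude a pairing. The cause of the other changes was not tested. With few libraries a group, differences of the size of that of Scarb2 were not resolved.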
